A study of Mus musculus with 8 samples.

Results

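The genes described here are 10 genes that mark fat cells: Adipoq, Fabp4, Lpl, Cd36, Plin1, Cfd, Retn, Lep, Car3 and Cidec. They were taken by name from the 45232 genes of the deposited table, and each was found. The list was chosen with earlier results of these data known, so it is not independent of them. RNA was sequenced from CD4+ CD25+ T cells (a combination of surface proteins that enriches for regulatory T cells, Tregs) sorted from the visceral adipose tissue or the spleen of C57BL/6 mice. The 4 groups were KO adipose tissue, WT adipose tissue, KO spleen and WT spleen, where KO mice carried the genotype Id2 CKO and WT mice were wild type. Each group held 2 libraries, numbered 2 and 3, from at least 500 sorted cells each, and the file headers call these numbers experiments. The Cre driver, the ages of the mice and whether libraries came from separate mice are not stated in the labels, so p-values reflect only how far the libraries of a group lie apart, which may be technical. The design asks how Id2 and the tissue bear on gene expression in these cells. For the adipocyte genes the question is whether their levels in the sorted libraries differed with genotype or tissue.

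White adipocytes take up fatty acids freed from circulating lipoproteins, store them as triglyceride in a large lipid droplet and secrete hormones called adipokines. T cells are not known as a main source of these proteins, and fat-resident Tregs lie among adipocytes, capillaries, macrophages and stromal cells. Some of the genes are not restricted to adipocytes: Fabp4 and Cd36 are also known in capillary endothelium and macrophages, and Lpl in macrophages.

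Levels are given as TPM, a share of transcripts that scales for transcript length and makes each library sum to 1000000. Between 13184 (KO adipose 2) and 20684 (KO adipose 3) genes were above 0, and r across tested genes within a group lay between 0.812 (KO adipose) and 0.956 (WT spleen). The targeted gene, Id2, was at 1499 and 1298 TPM in the KO adipose libraries and at 2249 and 3679 TPM in the WT adipose libraries. The KO spleen libraries held Id2 at 72.1 and 265 TPM and the WT spleen libraries at 274 and 346 TPM, so in each tissue both KO values were below both WT values. The labels do not state which exons were deleted. All 11 T cell markers, among them Cd3g, Trac and Cd3d, were at 1 TPM or more in every library, and their sum ranged from 4370.1 TPM (KO adipose 3) to 12825 TPM (KO spleen 2). Of the Treg markers Tnfrsf18, Klrg1 and Ctla4 had the highest mean levels, at 53.4 TPM or more in every library. Foxp3, which defines Tregs, had 7.4 TPM in KO adipose 2 and a similar 8.27 TPM in KO spleen 2, against 93.5 to 266 TPM in the other libraries.

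All 10 adipocyte genes had their highest levels in the 2 adipose libraries numbered 3, and both of these lay above every one of the other 6 libraries for each gene. The sum of the 10 genes was 68.5 and 16794 TPM in KO adipose 2 and 3, against 10.7 and 2374 TPM in WT adipose 2 and 3. The KO spleen libraries summed to 2.06 and 15.2 TPM and the WT spleen libraries to 6.01 and 12 TPM. The KO and WT adipose values overlapped, since KO adipose 2 lay below WT adipose 3. Fabp4 alone made up 80.9% of the sum in KO adipose 3 and 83.9% in WT adipose 3. In bulk libraries of this kind, fewer cells of a type and less RNA per cell cannot be told apart.

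**Figure D1:**
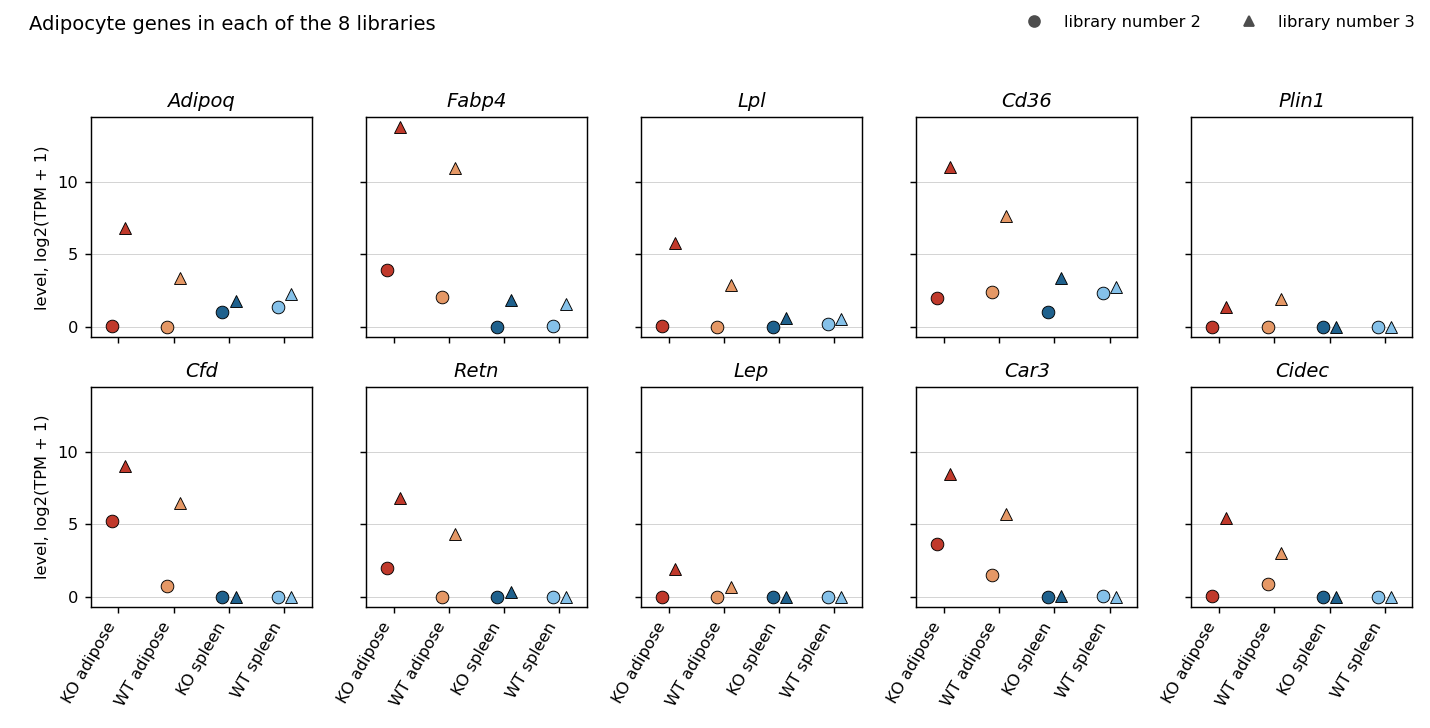
Level of each adipocyte gene, as log2(TPM + 1), in the 4 groups (KO left of WT within each tissue); circles are libraries numbered 2 and triangles libraries numbered 3. In each panel the 2 adipose triangles are the highest points, and in 9 of 10 panels the KO triangle lies above the WT triangle.

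Among the genes of fatty acid uptake and handling, Fabp4, which encodes a carrier of fatty acids inside the cell, had the highest levels. It was at 14.2 and 13591 TPM in the KO adipose libraries and at 3.11 and 1991 TPM in the WT adipose libraries. The KO spleen libraries held it at 0 and 2.64 TPM and the WT spleen libraries at 0.0494 and 2.02 TPM. Both adipose libraries numbered 2 were thus above all spleen libraries, while the KO and WT adipose values overlapped. Cd36, a fatty acid transporter of the cell surface, was at 3.07 and 2017 TPM in the KO adipose libraries and at 4.23 and 198 TPM in the WT adipose libraries. Spleen held it at 1.03 and 9.25 TPM in KO and at 4.16 and 5.66 TPM in WT. The adipose libraries numbered 2 lay within the spleen range for this gene, so only the libraries numbered 3 stood above it. Lpl, which encodes lipoprotein lipase, the enzyme that frees fatty acids from lipoproteins, was at 0.0294 and 54.3 TPM in the KO adipose libraries and at 0 and 6.28 TPM in the WT adipose libraries. It did not exceed 0.53 TPM in any spleen library. Car3, an abundant carbonic anhydrase of fat cells, was at 11.3 and 353 TPM in the KO adipose libraries and at 1.86 and 52.1 TPM in the WT adipose libraries, and did not exceed 0.0413 TPM in spleen. Car3 and Fabp4 were thus higher in every adipose library than in any spleen library, and so were Cfd and Cidec, described below. The share of all tested genes with this order was not counted, so the order is not read as particular to these genes. For Cidec it rested on 0.0432 TPM in KO adipose 2 against 0 in spleen. For Fabp4 it rested on 3.11 TPM in WT adipose 2 against 2.64 TPM in KO spleen 3.

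The genes of the lipid droplet were lower. Cidec, whose protein enlarges droplets by fusing them, was at 0.0432 and 42.5 TPM in the KO adipose libraries and at 0.843 and 7.33 TPM in the WT adipose libraries. Plin1, which encodes perilipin 1, the coat protein of the droplet, was at 0 and 1.63 TPM in the KO adipose libraries and at 0 and 2.84 TPM in the WT adipose libraries. Both genes were listed at 0 in all 4 spleen libraries. Plin1 was the only one of the 10 genes that was lower in KO adipose 3 than in WT adipose 3. Cidec was lower in KO adipose 2 than in WT adipose 2, and so was Cd36.

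Another 4 of the genes encode secreted proteins. Cfd, which encodes the complement protease adipsin, was at 36.9 and 507 TPM in the KO adipose libraries and at 0.687 and 87 TPM in the WT adipose libraries, and was listed at 0 in all 4 spleen libraries. Retn, which encodes resistin, was at 2.97 and 113 TPM in the KO adipose libraries and at 0 and 19.2 TPM in the WT adipose libraries. Its only spleen value above 0 was 0.262 TPM in KO spleen 3. Lep, which encodes leptin, was at 0 and 2.74 TPM in the KO adipose libraries and at 0 and 0.579 TPM in the WT adipose libraries, and was listed at 0 in spleen. It was the only one of the 10 genes that failed the filter for testing (at least 1 TPM in at least 2 libraries), so tests cover 9 genes. Adipoq, which encodes adiponectin, was at 0.029 and 112 TPM in the KO adipose libraries and at 0 and 9.46 TPM in the WT adipose libraries. The KO spleen libraries held Adipoq at 1.03 and 2.44 TPM and the WT spleen libraries at 1.63 and 3.83 TPM. All 4 spleen values of Adipoq were above those of both adipose libraries numbered 2, an order that differs from that of Cfd, Car3 and Fabp4.

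Promoter windows are shown for Cfd and Retn, 2 secreted genes that were high in the same libraries, and for Plin1, which was low throughout and had the opposite genotype order in the libraries numbered 3. They come from RefSeq on GRCm38.p6, which is not the build the reads were mapped to, and each runs 5′ to 3′ on the gene's strand from 250 bases before to 50 bases after the start of the gene. Capitals mark matches, on either strand, to TTNNGCAA, a motif bound by C/EBP factors, which drive adipocyte differentiation. The Cfd window is chr10:79890603-79890902 on the plus strand, the Retn window chr8:3655520-3655819 on the plus strand and the Plin1 window chr7:79732727-79733026 on the minus strand.
Cfd: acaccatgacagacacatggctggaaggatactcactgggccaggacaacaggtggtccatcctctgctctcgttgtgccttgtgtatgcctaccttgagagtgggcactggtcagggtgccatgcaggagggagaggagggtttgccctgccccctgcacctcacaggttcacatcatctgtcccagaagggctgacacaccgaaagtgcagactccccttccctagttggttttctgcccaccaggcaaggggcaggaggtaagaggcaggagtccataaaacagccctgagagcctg
Retn: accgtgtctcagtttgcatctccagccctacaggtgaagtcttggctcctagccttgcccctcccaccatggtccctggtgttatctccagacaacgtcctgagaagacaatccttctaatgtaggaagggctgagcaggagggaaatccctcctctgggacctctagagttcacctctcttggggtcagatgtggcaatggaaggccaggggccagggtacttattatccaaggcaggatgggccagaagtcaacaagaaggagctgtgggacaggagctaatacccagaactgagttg
Plin1: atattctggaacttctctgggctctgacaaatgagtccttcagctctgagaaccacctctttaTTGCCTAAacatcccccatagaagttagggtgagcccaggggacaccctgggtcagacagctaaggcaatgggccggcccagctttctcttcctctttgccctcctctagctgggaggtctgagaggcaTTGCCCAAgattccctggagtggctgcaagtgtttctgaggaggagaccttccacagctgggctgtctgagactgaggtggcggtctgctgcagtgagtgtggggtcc
Plin1 held 2 matches in these letters, and Cfd and Retn held 0. Of the 10 genes, 7 had an entry in the promoter table, with 8 windows, and Fabp4, Lpl and Car3 had none. The C/EBP motif was found in windows of Cidec, Lep and Plin1, against 10.8% of all 32851 windows of this length. AGGTCA, the half-site read by nuclear receptors such as PPARG, was found in a window of Cd36, against 16.3% of all windows. AGGTCANAGGTCA, a direct repeat of the half-site with 1 base between that overlaps it by construction, was in 0 member windows, against 0.0396% of all. TATAAA was in 0 member windows, against 13.6% of all, and CCAAT in windows of Adipoq and Cd36, against 37.4% of all. A match describes letters only and is not a shown binding site.

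KO was set against WT in adipose tissue with limma on log2(TPM + 1), where a gene was called at an adjusted p under 0.05 over all 13376 tested genes. None of the 9 tested adipocyte genes was called (0 also at an unadjusted p under 0.05), where 0.284% of all tested genes were called. Cfd had the largest log2 fold change, 3.51 (SE 1.75, limma adjusted p = 0.747). Car3 had 2.42 (SE 1.66, adjusted p = 0.776), Fabp4 2.33 (SE 3.35, adjusted p = 0.877) and Retn 2.24 (SE 1.68, adjusted p = 0.787). The values were 1.74 (SE 1.96) for Adipoq, 1.49 (SE 2.65) for Cd36, 1.48 (SE 1.67) for Lpl and 0.78 (SE 1.51) for Cidec. Plin1 alone was negative, at -0.27 (SE 0.74). The median of the 9 genes was 1.74, against -0.27 over all tested genes. The differences within a group, such as 14.2 against 13591 TPM of Fabp4 in KO adipose tissue, exceeded those between the group means. Without KO adipose 3 the sign turned for 7 of the 9 genes, among them Fabp4 (-2.58), Cd36 (-2.99), Adipoq (-1.65) and Retn (-0.18). That fit set KO adipose 2 against both WT adipose libraries, so genotype and library number cannot be told apart in it. Cfd had 0.66 without WT adipose 2 and 6.36 without WT adipose 3.

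Compared within a library number, KO was above WT for most of the genes in number 3 and less uniformly in number 2. None of these ratios had a replicate. In the libraries numbered 3, 9 of 10 genes were higher in KO than in WT, where 37.4% of tested genes were. Of the 9 genes at 1 TPM or more in WT adipose 3, the KO to WT ratio of TPM was 11.9 for Adipoq, 10.2 for Cd36, 8.64 for Lpl, 6.83 for Fabp4, 6.78 for Car3, 5.89 for Retn, 5.83 for Cfd and 5.8 for Cidec. For Plin1 it was 0.573. Without Plin1 the ratios thus lay between 5.8 and 11.9, while the levels in WT adipose 3 ran from 6.28 (Lpl) to 1991 TPM (Fabp4). Over all 11742 tested genes at that level the median ratio was 0.792, and over 11 T cell markers it was 0.512. In the libraries numbered 2, KO was higher than WT for 6 genes, lower for 2 and equal, at 0, for 2. The share of all tested genes higher in KO was not counted there. For Adipoq and Lpl the KO values were only 0.029 and 0.0294 TPM, against 0 in WT adipose 2. Fabp4 and Car3, with ratios of 4.55 and 6.06, and Cd36, with 0.726, were the genes at 1 TPM or more in both of these libraries.

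**Figure D2:**
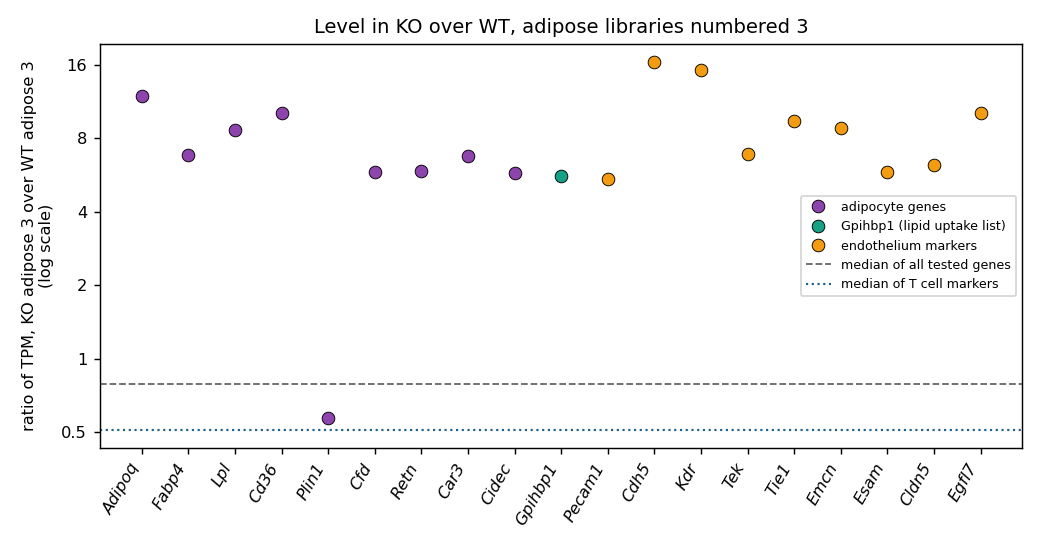
Ratio of TPM in KO adipose 3 over WT adipose 3, on a log scale, for adipocyte genes (purple), Gpihbp1 (green) and endothelium markers (orange) at 1 TPM or more in WT adipose 3; lines are medians of all tested genes (0.792) and of T cell markers (0.512). The adipocyte genes other than Plin1 lie between 5.8 and 11.9, within the range of the endothelium markers (5.47 to 16.4).

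Because the libraries shared experiment numbers, the difference between numbers 3 and 2 in adipose tissue was fitted as a term in each tissue beside the 4 group means. This comparison was chosen after the values were seen. Higher in number 3 and past the test were Fabp4 (log2 fold change 9.36, SE 0.37, limma adjusted p = 0.00432), Cfd (4.72, SE 0.57, adjusted p = 0.0486), Retn (4.59, SE 0.44, adjusted p = 0.0414) and Car3 (4.53, SE 0.43, adjusted p = 0.0414). These are 4 of the 9 tested genes, where 0.284% of all tested genes were called as higher. The SE pools adipose and spleen libraries, and spleen adds no spread for Cfd and little for Car3 and Retn, which were at or near 0 there. The other 5 genes were not called: Cd36 had 7.10 (adjusted p = 0.0515), Adipoq 5.09 (0.0713), Lpl 4.30 (0.0755) and Cidec 3.78 (0.107), and Plin1, listed at 0 in both adipose libraries numbered 2, had an adjusted p of 0.135. For all 9 tested genes both adipose libraries numbered 3 lay above the other 6 libraries, an order held by 14.0% of tested genes. Lpl, Cidec and Plin1 reached 1 TPM in no other library, so passing the filter already fixed this order for them. The fit left 2 residual degrees of freedom, and the set of called adipocyte genes changed whichever 1 library was left out. No adipocyte gene stayed called in all of those fits. Each of them holds 1 library in a group, so their counts are not set against a share over all tested genes. With the 4 adipose libraries alone limma called 0 adipocyte genes and 0 genes in all, with 1457 at an unadjusted p under 0.05.

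**Figure D3:**
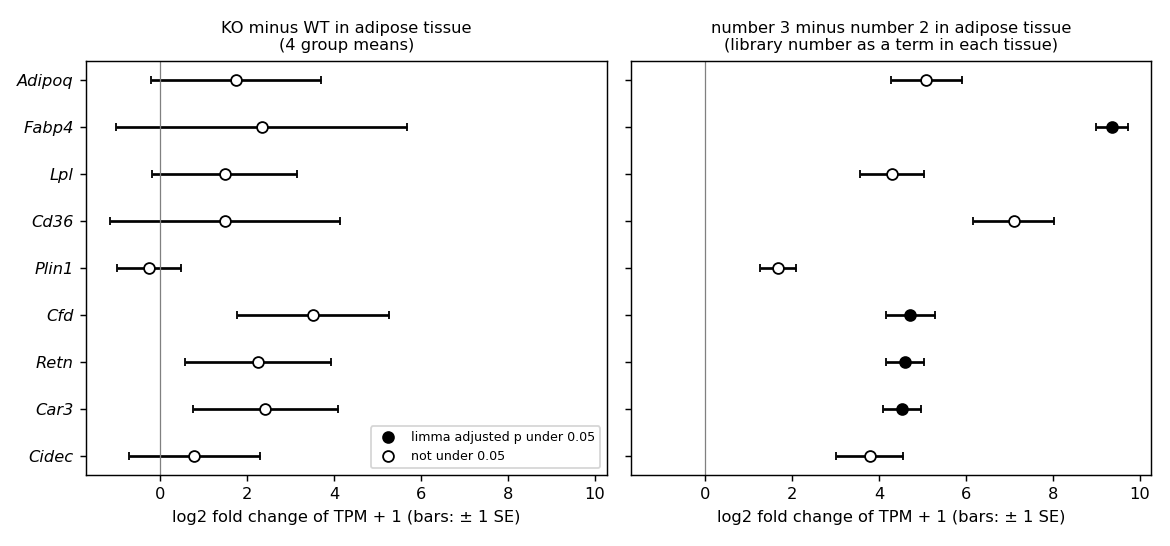
Log2 fold change of TPM + 1, with bars of ± 1 SE, of the 9 tested adipocyte genes for KO minus WT (left) and number 3 minus number 2 (right) in adipose tissue; filled points passed limma's adjusted p under 0.05. The left panel comes from the fit of 4 group means. The right panel comes from the fit with the number as a term in each tissue, so the SEs of the panels are not alike. For Fabp4 the SE of KO minus WT was 3.35 in the former fit and 0.37 in the latter. No gene passed for KO minus WT in either fit, and Fabp4, Cfd, Retn and Car3 passed on the right. There the point of Plin1 depends on the pseudocount because it was listed at 0 in both libraries numbered 2.

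Adipose tissue was then set against spleen within each genotype, 2 comparisons that share libraries with those above. In KO, limma called 0 of the 9 genes (4 had an unadjusted p under 0.05), where 1.08% of all tested genes were called. Fabp4 had a log2 fold change of 7.89 (SE 3.35, limma adjusted p = 0.377), Car3 6.01 (SE 1.66, adjusted p = 0.174) and Cd36 4.31. For Cfd, Cidec and Plin1, listed at 0 in all 4 spleen libraries, no fold is given, and the adipose levels above stand beside 0. Of these 3, Cfd had the smallest adjusted p in KO (0.13). In WT, limma called 0 of the 9 genes (0 at an unadjusted p under 0.05), where 0.164% of all tested genes were called, and the values were 5.67 (SE 3.35, adjusted p = 0.498) for Fabp4 and 3.58 (SE 1.66, adjusted p = 0.404) for Car3. Leaving out 1 library moved these log2 fold changes over wide ranges, 2.99 to 12.8 for Fabp4 in KO, 1.21 to 10.13 for Fabp4 in WT and 1.47 to 5.69 for Car3 in WT, lowest without the adipose library numbered 3 of that genotype. Adipoq had -0.14 in WT, where WT adipose libraries held 0 and 9.46 TPM and WT spleen libraries 1.63 and 3.83 TPM. For Car3, which did not exceed 0.0413 TPM in spleen, the values depend on the pseudocount. They were 9.06 in KO and 6.3 in WT with a pseudocount of 0.1, and 3.93 and 1.98 with 5.

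With the number as a term in each tissue, a fit added after the values were seen, the calls between tissues changed. Fabp4 (limma adjusted p = 0.00492), Car3 (0.00712), Cfd (0.00815) and Retn (0.015) were then higher in KO adipose tissue than in KO spleen, 4 of 9 genes where 2.47% of tested genes were called in either direction. In WT, Fabp4 (0.015) and Car3 (0.0332) were higher in adipose tissue than in spleen, 2 of 9 genes where 0.882% of tested genes were called. KO minus WT in adipose tissue had 0 of 9 genes called in that fit, where 0.336% of tested genes were, with adjusted p-values of 0.0936 for Fabp4 and 0.0953 for Cfd and 4 genes at an unadjusted p under 0.05. This fit pools the spread of adipose and spleen libraries. Cfd was listed at 0 in all spleen libraries, and Car3 and Retn did not exceed 0.0413 and 0.262 TPM there. The spleen libraries thus contribute no spread for Cfd and little for Car3 and Retn. Cfd, Car3 and Retn also passed the filter through adipose libraries alone, which favoured a higher level in adipose tissue in advance. The counts of 4 and 2 called genes are therefore not independent of the filter.

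In spleen, KO minus WT gave 0 called genes among the 9 adipocyte genes (0 at an unadjusted p under 0.05), where limma called 0% of all tested genes (64 at an unadjusted p under 0.05). Of the 10 genes, 3 reached 1 TPM in a spleen library (Adipoq, Fabp4 and Cd36) and 4 were listed at 0 in all 4 spleen libraries. The genotype effect in adipose tissue minus that in spleen was called for 0 of 9 genes (0 at an unadjusted p under 0.05), where 0.0299% of tested genes were called. A difference in genotype effect between the tissues was therefore not shown for any of these genes.

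Of the markers of other cells of fat tissue, those of endothelium had their highest sums in the same 2 libraries as the adipocyte genes. The 10 endothelium markers summed to 16.4 and 1319 TPM in KO adipose 2 and 3, against 39.4 and 184 TPM in WT adipose 2 and 3, with 4 and 0 of them at 0 in KO and 7 and 0 in WT. The KO spleen sums were 7.23 and 29.5 TPM and the WT spleen sums 15.9 and 28.8 TPM. Cldn5, a tight junction gene of endothelium, was at 0 and 351 TPM in the KO adipose libraries and at 0 and 56.2 TPM in the WT adipose libraries. Cldn5 (adjusted p = 0.0414) and Esam (0.0414), an endothelial adhesion gene, were 2 of 9 tested endothelium markers called as higher in number 3 by limma, where 0.284% of all tested genes were. Pecam1, another of them, was at 6.96 and 189 TPM in the KO adipose libraries and at 38.2 and 34.6 TPM in the WT adipose libraries. Over the 9 endothelium markers at 1 TPM or more in WT adipose 3, the median KO to WT ratio was 8.8, against 6.78 over the adipocyte genes.

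Macrophage and stromal markers followed another order. The 12 macrophage markers summed to 15.8 and 11203 TPM in the KO adipose libraries and to 9.43 and 21 TPM in the WT adipose libraries, and to 13.3 and 105 TPM in KO spleen, against 614 and 156 TPM in WT spleen. Lyz2, the lysozyme of myeloid cells, had 4982 TPM in KO adipose 3 against 4.05 TPM in WT adipose 3, and the complement genes C1qb and C1qa were at 2781 and 1194 TPM in KO adipose 3, against 0.214 and 0 TPM in WT adipose 3. Adgre1, which encodes the macrophage antigen F4/80, was instead highest in the same 2 libraries as the adipocyte genes, and was chosen after its values were seen. It was at 0 and 127 TPM in the KO adipose libraries and at 3.91 and 16 TPM in the WT adipose libraries, against at most 2.56 TPM in spleen, with a KO to WT ratio of 7.93 in the libraries numbered 3. Of the 12 markers, 5 were at 0 in WT adipose 3, and Lyz2 and Adgre1 alone were at 1 TPM or more. The 10 fibroblast and mesothelium markers summed to 746 and 3734 TPM in the KO adipose libraries and to 0.328 and 4.8 TPM in the WT adipose libraries, and to at most 0.454 TPM in spleen. Dcn was at 404 and 2493 TPM in the KO adipose libraries and at 0.101 and 3.58 TPM in the WT adipose libraries, Igfbp6 at 269 and 746 TPM against 0.038 and 0.839 TPM, and Msln at 24.7 and 149.6 TPM against 0 and 0 TPM. Erythroid genes, led by Hba-a2, Hbb-bs and Hbb-bt, summed to 34707 and 65679 TPM in the KO adipose libraries and to 38.4 and 3798 TPM in the WT adipose libraries. The sums were 1186 and 107806 TPM in KO spleen and 15716 and 46715 TPM in WT spleen. B cell markers, led by Cd79b, Cd79a and Ms4a1, summed to 12.2 to 56.1 TPM over the adipose libraries, and neutrophil markers to at most 1.95 TPM in any library. The part of these cell types in the levels of the adipocyte genes was not tested.

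**Figure D4:**
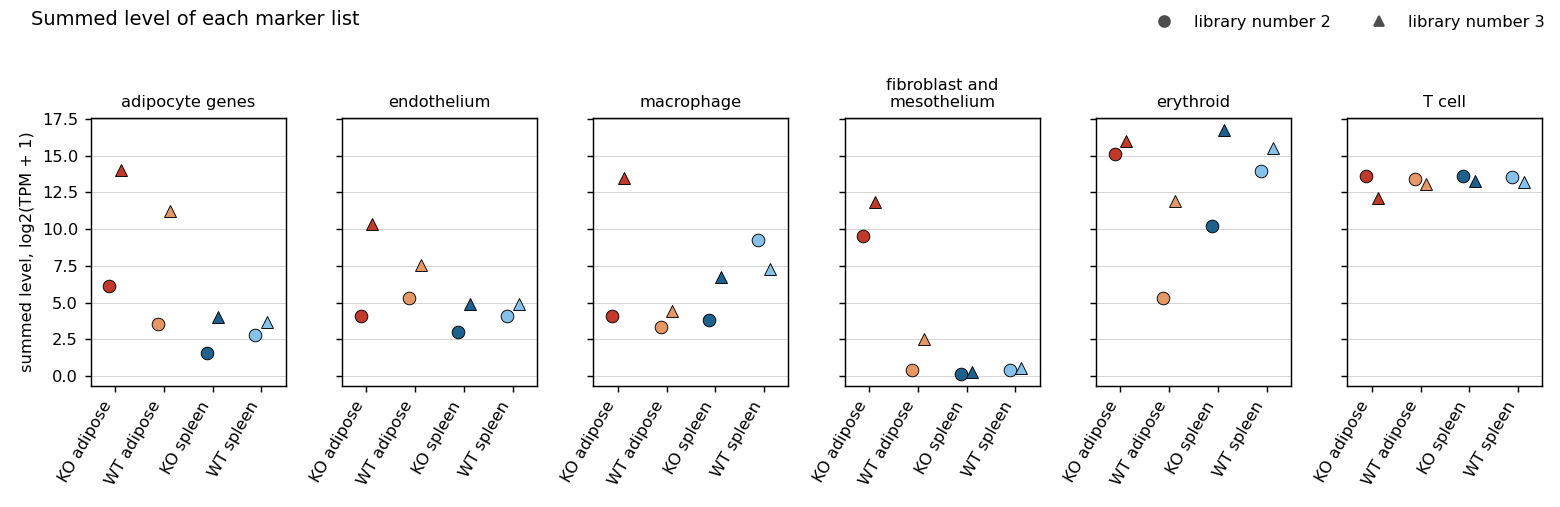
Summed level of each marker list, as log2(TPM + 1), by group (KO left of WT within each tissue); circles are libraries numbered 2 and triangles libraries numbered 3. Adipocyte and endothelium sums are highest in the 2 adipose libraries numbered 3, macrophage sums in KO adipose 3 and fibroblast and mesothelium sums in both KO adipose libraries.

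Other genes of adipocyte metabolism were read from lists by role. None of their tested members was called for KO minus WT in adipose tissue: 0 of 5 transcription factors, 0 of 7 genes of the lipid droplet and lipolysis, 0 of 12 of triglyceride and fatty acid synthesis, 0 of 6 of lipid and glucose uptake and 0 of 6 secreted or surface genes, with 1, 0, 0, 1 and 2 at an unadjusted p under 0.05. Over all 13376 tested genes limma called 0.284%, and 932 had an unadjusted p under 0.05. Hp, which encodes haptoglobin, had the smallest adjusted p of these (0.111) and was at 6.65 and 43.4 TPM in the KO adipose libraries and at 0 and 0.0579 TPM in the WT adipose libraries. Orm1, which encodes an acute phase protein, was at 6.51 and 16.6 TPM in the KO adipose libraries and at 0 and 10.3 TPM in the WT adipose libraries (adjusted p = 0.751). Lrp1, an endocytic receptor of lipoprotein remnants, was at 1.76 and 4.75 TPM in the KO adipose libraries and at 0 and 0.00439 TPM in the WT adipose libraries (1.99, SE 0.53, limma adjusted p = 0.337). Sncg, which encodes a synuclein found in fat, was at 7.99 and 95.4 TPM in the KO adipose libraries and at 0.992 and 4.29 TPM in the WT adipose libraries (limma adjusted p = 0.522). For number 3 minus number 2 in adipose tissue, 2 genes of these lists were called. They were 1 of 6 tested genes of lipid and glucose uptake and 1 of 12 of triglyceride and fatty acid synthesis. Of all tested genes 0.284% were called as higher. Gpihbp1, the capillary protein that anchors lipoprotein lipase, was at 0.392 and 656 TPM in the KO adipose libraries and at 0 and 117 TPM in the WT adipose libraries (limma adjusted p = 0.0414). Thrsp, a gene of fatty acid synthesis, was at 0.722 and 163 TPM in the KO adipose libraries and at 0 and 19.2 TPM in the WT adipose libraries (adjusted p = 0.0486). Aqp7, a glycerol channel of fat tissue, had the same order, at 0.0142 and 253 TPM in the KO adipose libraries and at 0 and 21.1 TPM in the WT adipose libraries, and was not called (adjusted p = 0.0547). Other listed genes were low in KO adipose 3 and WT adipose 3: Plin4 (2.13 and 0.0538 TPM), Slc2a4 (2.54 and 0), Adrb3 (0.0789 and 0) and Plin5 (0 and 0). In these 2 libraries 8 and 8 of 10 droplet and lipolysis genes reached 1 TPM. So did 7 and 5 of 8 uptake genes and 8 and 5 of 13 secreted or surface genes. The transcription factor gene Cebpd was at 10.1 and 65.4 TPM in the KO adipose libraries and at 2.22 and 6.32 TPM in the WT adipose libraries (adjusted p = 0.157 for the number), and Cebpa, a master factor of adipocyte differentiation, did not exceed 1.65 TPM in any library. For KO minus WT in adipose tissue the log2 fold changes were -0.93 (SE 0.55) for the lipid synthesis regulator Srebf1, -0.76 (SE 0.45) for Acly, which makes acetyl-CoA for fatty acid synthesis, and -0.62 (SE 0.64) for the phosphatidate phosphatase gene Lpin1. They were 1.03 (SE 1.58) for the lipolysis inhibitor G0s2, 0.75 (SE 1.97) for the monoglyceride lipase gene Mgll, -0.56 (SE 0.41) for the droplet coat gene Plin3 and 0.57 (SE 0.95) for Angptl4, an inhibitor of lipoprotein lipase. None of these 7 differences passed the test (limma adjusted p of 0.751 or more).

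Across the 8 libraries the 9 tested adipocyte genes varied together, with Pearson's r of log2(TPM + 1) between 0.682 and 0.986 over 36 pairs and a median of 0.922. These values are descriptive, since all genes share the same 8 libraries and the libraries fall into groups. Predicted genes, genes named as clones, pseudogenes and antigen receptor segments were left out of the ranking that follows. Of the other tested genes, the closest to Cfd were Cav1 (r = 0.997), the main caveolar coat protein, Lama4 (0.989), Lims2, Sparc and Sdpr. Cav1 was at 60.1 and 1004 TPM in the KO adipose libraries and at 0.0123 and 98.9 TPM in the WT adipose libraries. The closest to Fabp4 were Jup (0.989), Btnl9 (0.987), the endothelium marker Esam (0.986), Gpc4 and Mn1. The closest to Car3 were S100a16 (0.995), Cav2 (0.991), Sparc (0.99), Cfd (0.986) and Btnl9. The closest to Cd36 were Sult1a1 (0.993), Fer (0.993), Cybrd1, Ctbp2 and Id1, which was at 0 and 313 TPM in the KO adipose libraries and at 0.292 and 30.2 TPM in the WT adipose libraries. Over all tested genes, with none left out, those with r above 0.95 numbered 110 for Fabp4, 191 for Cd36, 50 for Cfd and 65 for Car3.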

How the data were processed

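RNA of 8 sorted libraries was measured after SMARTer v4 amplification and Nextera XT library construction, per the labels' protocols. The authors deposited TPM, 1 value per gene and library, and each column sums to 1000000. The genome build was mm9, per the submitters' processing notes. The aligner, the counter and the gene models were not given in the sources used here. TPM keeps no depth, so depth is unknown and no counting interval is given. Spreadsheet conversion left 27 gene names as dates, which are not named. All 8 value columns were mapped to samples, with 0 left over.

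Genes that reached 1 TPM in 2 or more libraries entered limma 3.58.1 (R 4.3.3, variance trend) on log2(TPM + 1) in 1 fit of 4 group means with 4 residual degrees of freedom. P-values were adjusted by Benjamini-Hochberg over all genes tested, with a threshold of 0.05, for each of 5 contrasts. Fold changes on this scale understate changes of low genes. Libraries with the same number deviated together, with r between 0.128 and 0.382 over 6 pairs of groups. The fit of 4 group means did not pair them. The number entered only in the replicate block and in the fits with it as a term in each tissue. The fitting code was run on simulated data with known changes, which does not test unequal spread between groups. Alternatives covered the pseudocount, filter, scaling, variance trend, replicate block, groups fitted and each library left out.

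The adipocyte genes and marker lists were chosen with earlier results of these data known. By rule all 10 adipocyte genes are named, as are the 3 genes of smallest p per metabolic list (or past a test). The 3 most abundant markers per cell type are named too, except for neutrophils, for which only the sum is given. The rule also names the 5 genes most correlated with each of the 4 most abundant adipocyte genes. Adgre1, Foxp3, Pparg and Plin2, and examples within these sets, were chosen after their values were seen.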

Additional observations from a re-analysis of the deposited data

How the results depend on the processing

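The comparisons are called genotype (KO minus WT in adipose tissue, 38 genes called as reported), KO tissue (adipose minus spleen in KO, 144), WT tissue (the same in WT, 22), genotype by tissue (4) and number (number 3 minus number 2 in adipose tissue, 53). KO minus WT in spleen had 0 called genes in every setting run (64 at an unadjusted p under 0.05 in limma as reported). A pseudocount of 0.1 gave 13 genes for genotype, 70 for KO tissue, 0 for genotype by tissue and 3 for number, with 1 adipocyte gene in number. A pseudocount of 5 gave 89 for KO tissue and 1 for number, an adipocyte gene. No filter gave 63 for KO tissue, 0 for WT tissue, 0 for genotype by tissue and 0 for number. A filter at 5 TPM gave 18 for genotype, 59 for WT tissue, 0 for genotype by tissue and 113 for number. The replicate block gave 236 for KO tissue, 78 for WT tissue and 0 for genotype by tissue, and this pairing changed no call of an adipocyte gene. Quantile normalization gave 72 for genotype, 231 for KO tissue, 10 for genotype by tissue and 129 for number. It gave a median log2 fold change of all tested genes of -0.09 for genotype (-0.27 as deposited), -0.11 for KO tissue (0.16) and 0 for WT tissue (0.32), and turned no sign of a tested adipocyte gene in these 3 comparisons. No variance trend gave 7 for WT tissue and 16 for genotype by tissue. The compared groups alone gave 0 for genotype, 12 for KO tissue, 0 for WT tissue and 0 for number, with 0 adipocyte genes in number.

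Among fits added after seeing the data, a replicate block within each tissue gave 331 genes for KO tissue, 118 for WT tissue and 0 for genotype by tissue, with 4 adipocyte genes for KO tissue and 2 for WT tissue. Leaving out both adipose libraries numbered 3 gave 144 for genotype, 238 for KO tissue, 0 for WT tissue and 0 for genotype by tissue, with 1 adipocyte gene for genotype and 2 for KO tissue. Each adipose arm then holds 1 library and the spread comes from the spleen libraries alone, so these calls say nothing of the spread in adipose tissue. In that fit log2 fold changes turned sign for Cd36 (-0.36) and Cidec (-0.82) in genotype, for Adipoq (-1.36), Lpl (-0.26) and Cd36 (-0.16) in KO tissue, and for Lpl (-0.38) and Cd36 (-0.17) in WT tissue. Elsewhere a pseudocount of 0.1 gave -0.10 for Cidec in genotype and a pseudocount of 5 gave 0.15 for Adipoq in WT tissue.

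Leaving out 1 library at a time gave 6 to 343 genes for genotype, 1 to 663 for KO tissue, 0 to 39 for WT tissue, 0 to 177 for genotype by tissue and 0 to 266 for number, with 0 to 2 adipocyte genes for KO tissue and 0 to 6 for number. Called in KO tissue were Car3 and Cidec without KO adipose 2, and Cfd without WT adipose 2 or WT adipose 3. An arm left with 1 library is assumed to vary like the other groups. It is also set against libraries of both numbers, so the fold changes below mix the comparison with the library number. Log2 fold changes for genotype ranged from -1.65 to 5.13 for Adipoq, -0.01 to 4.84 for Car3, -2.99 to 5.97 for Cd36, -1.91 to 3.47 for Cidec, 0.66 to 6.36 for Cfd, -2.58 to 7.23 for Fabp4, -1.39 to 4.36 for Lpl, -1.24 to 0.7 for Plin1 and -0.18 to 4.67 for Retn. For KO tissue they ranged from -1.36 to 5.42 for Adipoq, 3.59 to 8.44 for Car3, 2.99 to 12.8 for Fabp4, -0.16 to 8.79 for Cd36 and -0.26 to 5.48 for Lpl. For WT tissue they ranged from -1.83 to 1.55 for Adipoq, 1.47 to 5.69 for Car3, 1.21 to 10.13 for Fabp4, -0.17 to 5.08 for Cd36 and -0.38 to 2.48 for Lpl. The causes were not tested. Calls rest on 2 libraries a group, and the read depth is unknown.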

Other observations

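Pparg, the nuclear receptor gene that drives adipocyte differentiation and is also known in visceral adipose tissue Tregs, was at 107 and 112 TPM in the KO adipose libraries and at 25.6 and 154 TPM in the WT adipose libraries. The KO spleen libraries held it at 0.545 and 8.77 TPM and the WT spleen libraries at 4.26 and 2.7 TPM. All 4 adipose libraries were above all 4 spleen libraries for Pparg, including KO adipose 2, in which the 10 adipocyte genes summed to 68.5 TPM. The difference between adipose tissue and spleen in KO was 4.83 on the log2 scale (SE 0.99, limma adjusted p = 0.0763), and number 3 minus number 2 in adipose tissue was 1.3 (SE 0.89, adjusted p = 0.468). Plin2, a lipid droplet coat gene of many cell types, was at 77.7 and 219 TPM in the KO adipose libraries and at 47.8 and 467 TPM in the WT adipose libraries, against 10.8 to 18.6 TPM in the 4 spleen libraries (KO adipose tissue minus spleen 3.29, SE 0.94, adjusted p = 0.193). Plin3, another coat gene, was at 59.5 and 44.8 TPM in the KO adipose libraries and at 59.9 and 98 TPM in the WT adipose libraries, against 17.3 to 27 TPM in spleen. In WT, adipose tissue minus spleen was 3.87 (SE 0.99, limma adjusted p = 0.202) for Pparg and 3.16 (SE 0.94, adjusted p = 0.261) for Plin2. In these sorted libraries Pparg, Plin2 and Plin3 were thus above their spleen levels in each adipose library. Other genes of the metabolic lists had this order too, and its share over all tested genes was not counted. Plin1 was listed at 0 in both adipose libraries numbered 2.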
